A study of Homo sapiens with 6 samples.

Results

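The transcripts of 10 genes of the E2F and retinoblastoma family were followed in 2 castration-resistant prostate cancer cell lines treated with inhibitors of the chaperone HSP70. The genes were taken as a named list (E2F1, E2F2, E2F3, E2F4, E2F7, E2F8, RB1, RBL1, RBL2 and TFDP1) and matched by Ensembl identifier, which found all 10 among the 60658 genes of each library. C4-2B MDVR is an enzalutamide-resistant line isolated from C4-2B cells, which descend from LNCaP, and it was kept in medium with 20 µM enzalutamide. CWR22Rv1 is a human prostate carcinoma line and was kept in the same medium without the drug. Each line received DMSO as vehicle, 10 µM apoptozole (APO) or 10 µM VER155008 (VER) for 48 h, and RNA from each of the 6 cultures was sequenced as 1 library. All differences therefore lack a replicate check, no p-value is given, and a difference between 2 libraries describes those libraries. The source label of the first line reads LNCaP-C4-2B where the titles read C4-2B MDVR, and all 6 samples are labelled as a parental line. The titles were followed here.

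E2F proteins bind DNA as partners of a DP protein such as the product of TFDP1, and they switch on genes for S phase entry and DNA replication. The pocket proteins RB1, RBL1 (p107) and RBL2 (p130) bind E2Fs and hold those genes down until cyclin-dependent kinases phosphorylate them. E2F1, E2F2 and E2F3 are classed as activators, E2F4 works mainly with RBL1 and RBL2 in repression, and E2F7 and E2F8 are atypical repressors that need no DP partner. RBL2 with E2F4 is part of the DREAM complex of resting cells, and several E2F genes are themselves E2F targets.

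The proximal promoters are shown because activator E2F genes and RBL1 carry, in the same short stretch, the letters that E2F proteins are known to bind. Sequences are from RefSeq on GRCh38.p14, where 9 of the 10 members had an entry, a short stretch around a transcription start. Capitals mark TTTCGCG and TTTGGCG, searched on both strands, and a capital CGCGAAA is TTTCGCG on the other strand. The stretches lie at chr20:33686371-33686450 for E2F1 (minus strand), chr1:23531240-23531319 for E2F2 (minus), chr6:20401803-20401882 for E2F3 (plus), chr20:37095978-37096055 for RBL1 (minus) and chr13:113584597-113584676 for TFDP1 (plus), each written 5′ to 3′ on the gene's strand.
E2F1: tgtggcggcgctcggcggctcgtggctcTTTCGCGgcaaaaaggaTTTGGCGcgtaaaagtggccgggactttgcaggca
E2F2: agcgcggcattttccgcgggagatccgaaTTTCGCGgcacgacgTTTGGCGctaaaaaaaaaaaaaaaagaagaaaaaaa
E2F3: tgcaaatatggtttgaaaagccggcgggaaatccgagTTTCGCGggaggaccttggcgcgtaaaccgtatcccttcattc
RBL1: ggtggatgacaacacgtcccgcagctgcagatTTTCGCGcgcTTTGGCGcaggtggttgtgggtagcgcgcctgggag
TFDP1: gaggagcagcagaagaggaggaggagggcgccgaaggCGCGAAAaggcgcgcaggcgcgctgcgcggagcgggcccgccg
Of all 35116 promoter entries, 1.32% held TTTCGCG, 1.92% held TTTGGCG, 3.19% held either and 0.0456% (16 entries) held both. E2F1, E2F2 and RBL1 were 3 of those 16. The entries of E2F4, E2F7, RB1 and RBL2 held neither in this window, which says nothing about binding elsewhere. Another entry of E2F3, with its start 1708 bases inside the gene, also held neither. TTTGAA, the core of the element by which the MuvB complex is known to bind late cell cycle genes, was in 15.2% of all entries and in an entry each of E2F3 and RBL2. The entry of RB1 lies 172724 bases inside the gene as GENCODE 29 draws it, so it belongs to another start than the first. Starts of the RBL2 entries lie 494 and 1642 bases inside that gene, so the bases before its first start were not searched.

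The values are FPKM, read fragments relative to the length of the transcript and to the library total, so that levels of different genes can be set side by side. The libraries hold between 17603 and 19376 genes above 0.1 FPKM. The files give no read total per library, and the methods of the study state only an approximate depth common to all samples. Ratios of very low values, over 167 to 347 genes, put the relative depth of the other libraries at 1.14 to 1.64 times that of C4-2B MDVR DMSO. By this estimate, which no read total could check, that library would measure low genes least precisely. Genes of the mitochondrial chromosome held 14.8% to 16.4% of FPKM in C4-2B MDVR and 25.7%, 10.4% and 25.7% in CWR22Rv1 with DMSO, APO and VER. Of the markers of prostate epithelium, the luminal keratin KRT8 was at 147 to 335 FPKM and HOXB13 at 24.4 to 98.2 FPKM in the 6 libraries. The 9 markers of fibroblasts, leukocytes, endothelium and basal cells summed to 4.89 to 11.2 FPKM, most of it COL1A1, with DCN at 0.89 to 1.70 FPKM in CWR22Rv1. The markers did not share a direction: HOXB13 and KLK3 were lower in all 4 treated libraries, with log2 fold changes of -2.0 to -0.45 and -3.64 to -0.41, while EPCAM, KRT8 and KRT18 lay between -0.33 and 0.94. KRT5, TP63 and PECAM1 were listed at 0 in all 6. In RNA of whole cultures, fewer cells that express a gene and less RNA of it per cell cannot be told apart.

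Under vehicle TFDP1 had the highest level of the 10 members in both lines, at 52.0 FPKM in C4-2B MDVR and 69.8 FPKM in CWR22Rv1. E2F1 and E2F4 followed in both lines, and E2F1 with 40.6 FPKM stood above E2F4 in C4-2B MDVR but below it in CWR22Rv1. The lowest members were E2F8 in C4-2B MDVR and RBL1 in CWR22Rv1. With 1 library each, no spread is known by which to separate neighbours in this order.

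E2F1, the best known activator, lies on the minus strand at chr20:33675683-33686404 (GRCh38, GENCODE 29, as for all members). In C4-2B MDVR its level was 40.6 FPKM with DMSO, 15.8 with APO and 15.0 with VER, and in CWR22Rv1 it was 46.0, 13.3 and 29.8 FPKM in the same order. It was lower with either inhibitor in both lines, and the CWR22Rv1 VER library was the only treated one in which it stayed within 2-fold of vehicle. The log2 fold changes, as differences of log2(FPKM + 0.1) between a treated library and DMSO of the same line, were -1.35 (APO) and -1.43 (VER) in C4-2B MDVR, and -1.78 and -0.62 in CWR22Rv1. Of the genes averaging 1 FPKM or more in the libraries compared, 4.41%, 4.69%, 3.38% and 11% had a lower change.

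E2F2, another activator (chr1:23506430-23531220, minus strand), was the activator with the widest difference between lines under vehicle, at 7.36 FPKM in C4-2B MDVR and 23.2 FPKM in CWR22Rv1. With the inhibitors it was at 1.52 (APO) and 1.09 FPKM (VER) in C4-2B MDVR and at 5.45 and 9.92 FPKM in CWR22Rv1. It was lower by more than 2-fold in each treated library, with log2 fold changes of -2.20 and -2.64 in C4-2B MDVR and -2.07 and -1.22 in CWR22Rv1. E2F3 (chr6:20401906-20493715, plus strand), which gives rise to activating and repressing isoforms that gene-level values do not separate, went from 14.9 FPKM to 7.55 and 7.58 FPKM in C4-2B MDVR and from 9.25 FPKM to 3.25 and 5.04 FPKM in CWR22Rv1. Its level with either inhibitor was nearly the same in C4-2B MDVR, and in CWR22Rv1 the APO library was the lower. The log2 fold changes of E2F3 were -0.97 and -0.97 in C4-2B MDVR and -1.48 and -0.86 in CWR22Rv1.

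**Figure D1:**
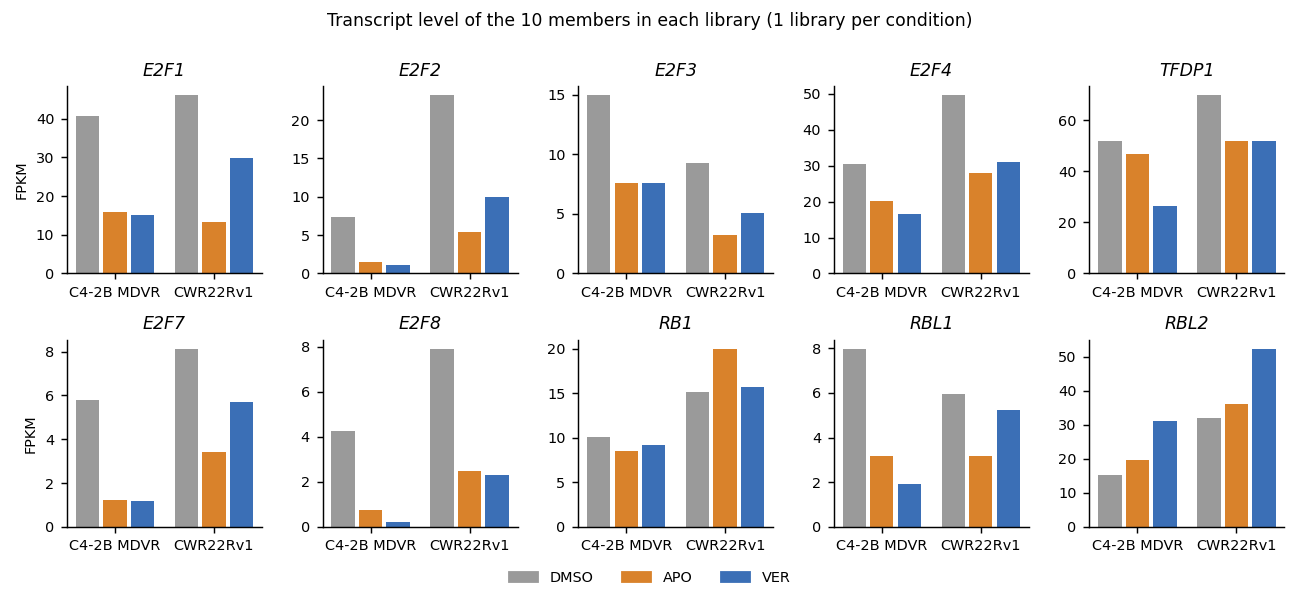
Bars give the FPKM of each member in each of the 6 libraries, on an axis of its own from 0, with 1 library per bar and no error. Every panel from E2F1 to E2F8 has its highest bar within each line at DMSO, and the RBL2 panel has its lowest there.

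E2F4 (chr16:67192169-67198918, plus strand), the main partner of p107 and p130, was at 30.5, 20.0 and 16.5 FPKM in C4-2B MDVR with DMSO, APO and VER, and at 49.5, 28.0 and 31.0 FPKM in CWR22Rv1. It was lower in all 4 treated libraries but by less than 2-fold in each, with log2 fold changes from -0.88 to -0.60. TFDP1 (chr13:113584721-113641470, plus strand), the dimerization partner, was at 52.0, 46.8 and 26.3 FPKM in C4-2B MDVR and at 69.8, 52.0 and 51.9 FPKM in CWR22Rv1. Its lowest level was in C4-2B MDVR with VER, a log2 fold change of -0.98, while the other changes were -0.15, -0.42 and -0.43. For scale, 10 reference genes in common use, such as GAPDH and PPIA, had median changes of -0.20 (APO) and -0.57 (VER) in C4-2B MDVR and of -0.33 and -0.46 in CWR22Rv1.

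E2F8, an atypical repressor (chr11:19224063-19241620, minus strand), had the lowest change of the family in 3 of the 4 contrasts, the exception being CWR22Rv1 with APO, where E2F2 and E2F1 were lower. In C4-2B MDVR it was at 4.25 FPKM with DMSO, 0.730 with APO and 0.20 with VER, and at 7.90, 2.49 and 2.30 FPKM in CWR22Rv1. All 4 treated libraries were more than 2-fold below vehicle, with log2 fold changes of -2.39 and -3.86 in C4-2B MDVR and -1.63 and -1.74 in CWR22Rv1. Fewer than 1.1% of genes in C4-2B MDVR had a lower change than E2F8: 1.03% with APO and 0.668% with VER. The level with VER in C4-2B MDVR is near the pseudocount of 0.1, and the log2 fold change ran from -4.34 with a pseudocount of 0.01 to -2.13 with 1.

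E2F7, its closest relative (chr12:77021247-77065580, minus strand), was at 5.78, 1.22 and 1.17 FPKM in C4-2B MDVR and at 8.13, 3.40 and 5.71 FPKM in CWR22Rv1. Both treated libraries of C4-2B MDVR were more than 4-fold below vehicle, with log2 fold changes of -2.15 and -2.21. In CWR22Rv1 the changes were -1.23 with APO and -0.50 with VER, while that of E2F8 with VER in this line was -1.74. The ratio of E2F1 to E2F8 transcripts, which does not depend on how libraries are scaled, was 9.54, 21.6 and 75.0 in C4-2B MDVR under DMSO, APO and VER in turn, and 5.82, 5.34 and 13.0 in CWR22Rv1.

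**Figure D2:**
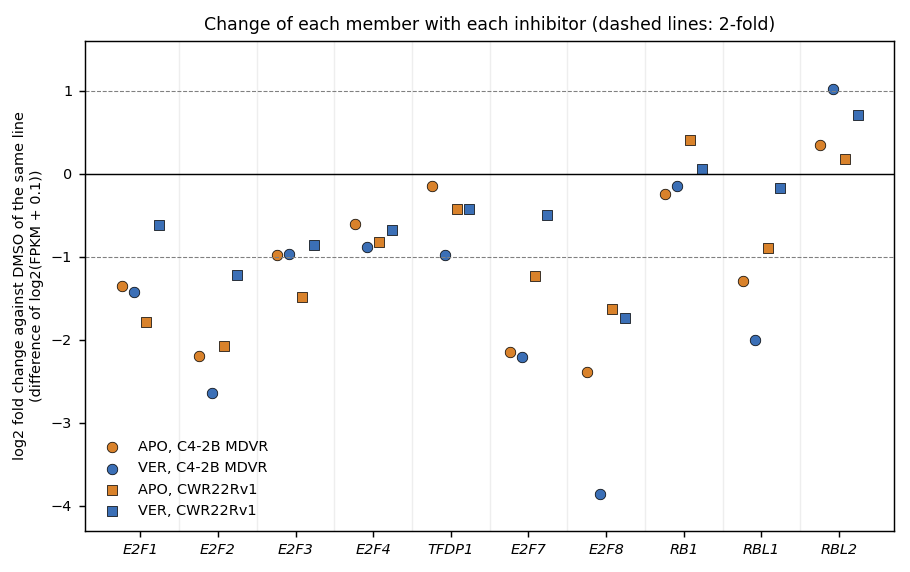
Each point is the log2 fold change of a member against DMSO of the same line, circles for C4-2B MDVR and squares for CWR22Rv1, orange for APO and blue for VER, with dashed lines at 2-fold. Points of E2F1, E2F2, E2F3, E2F4, E2F7, E2F8 and TFDP1 all lie below 0, those of RBL2 lie above 0, and E2F8 with VER in C4-2B MDVR is lowest at -3.86.

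The 3 pocket proteins did not move together. RB1, the retinoblastoma tumor suppressor (chr13:48303726-48599436, plus strand), was at 10.1, 8.51 and 9.15 FPKM in C4-2B MDVR and at 15.1, 20.0 and 15.8 FPKM in CWR22Rv1. It was within 1.2-fold of vehicle in 3 of the 4 treated libraries, with log2 fold changes of -0.25, -0.15 and 0.06, and was higher with APO in CWR22Rv1, at 0.40. Under other pseudocounts, filters and scalings, the change with APO ran from -0.41 to -0.23 in C4-2B MDVR and from 0.2498 to 0.52 in CWR22Rv1. Each of these ranges crosses 1.2-fold, a log2 value of 0.263. RB1 shares its locus with genes on the opposite strand, among them LPAR6 and RCBTB2, which were at no more than 4.76 FPKM in any library.

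RBL1 (p107, chr20:36996349-37095995, minus strand) was at 7.98, 3.20 and 1.92 FPKM in C4-2B MDVR and at 5.95, 3.15 and 5.24 FPKM in CWR22Rv1. Its log2 fold changes were -1.29 and -2.0 in C4-2B MDVR and -0.89 and -0.18 in CWR22Rv1, where the VER library was within 1.2-fold of vehicle. RBL2 (p130, chr16:53433977-53491649, plus strand), which accumulates in resting cells, was at 15.4, 19.6 and 31.2 FPKM in C4-2B MDVR and at 32.1, 36.2 and 52.4 FPKM in CWR22Rv1. It was the only member with a higher level in all 4 treated libraries, and VER had the highest level in both lines. The log2 fold changes of RBL2 were 0.35 (APO) and 1.01 (VER) in C4-2B MDVR, and 0.17 and 0.70 in CWR22Rv1, of which the change of 0.17 is within 1.2-fold. Rescaling the libraries to the same sum, with or without the mitochondrial chromosome, put RBL2 with APO in C4-2B MDVR at 0.20 and 0.19, also within 1.2-fold.

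AKTIP lies on the opposite strand at the end of RBL2 and shares 610 of the 7320 exonic bases of RBL2. Its level went from 21.0 FPKM to 44.8 and 42.7 FPKM in C4-2B MDVR, and was 20.5, 22.8 and 19.8 FPKM in CWR22Rv1 with DMSO, APO and VER. RBL2 and AKTIP were both higher than with DMSO with either inhibitor in C4-2B MDVR and with APO in CWR22Rv1. With VER in CWR22Rv1, RBL2 was higher and AKTIP slightly lower. Whether counting used the strand is not given in the sources used here, and the part of AKTIP reads in the RBL2 values was not tested.

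Shares within a library are free of scaling between libraries. RBL2 held 45.9% of the summed pocket protein FPKM in C4-2B MDVR with DMSO, 62.6% with APO and 73.8% with VER. RBL1 held 23.8%, 10.2% and 4.54%. In CWR22Rv1 RBL2 held 60.4%, 61.0% and 71.4%, and RBL1 held 11.2%, 5.31% and 7.14%. The ratio of RBL2 to RBL1 was higher in each treated library than in vehicle, at 1.93, 6.14 and 16.2 in C4-2B MDVR and 5.40, 11.5 and 9.99 in CWR22Rv1. Among the 6 E2F members, the summed FPKM was 103, 46.9 and 41.6 in C4-2B MDVR and 144, 55.9 and 83.7 in CWR22Rv1. The part of E2F4 in that sum was larger with either inhibitor, 29.5%, 42.8% and 39.7% in C4-2B MDVR and 34.4%, 50.1% and 37.0% in CWR22Rv1.

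**Figure D3:**
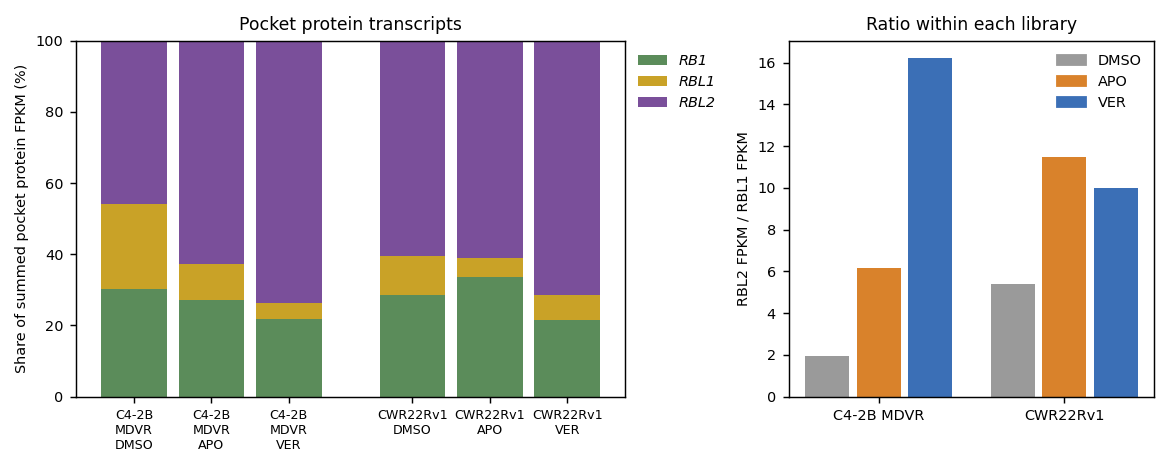
Left, stacked bars give the percent of the summed FPKM of RB1, RBL1 and RBL2 held by each in every library. Right, bars give the ratio of RBL2 to RBL1 FPKM, which is 1.93 in C4-2B MDVR with DMSO and 16.2 with VER.

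Read as a family, 7 of the 10 members were lower past 1.2-fold, the threshold of the study, with APO in C4-2B MDVR, where 35.4% of all genes compared were, and 1 was higher, against 37.7% of all genes. With VER in C4-2B MDVR 8 were lower (34.9% of all genes) and 1 higher (35.6%). In CWR22Rv1 8 were lower with APO (39.2%) and 1 higher (35.6%), and 7 were lower with VER (32.3%) and 1 higher (32.1%). Past 2-fold, 5 members were lower with APO in C4-2B MDVR (13.3% of all genes), 5 with VER (13.3%), 5 with APO in CWR22Rv1 (16.8%) and 2 with VER (8.92%). RBL2 with VER in C4-2B MDVR was the only member higher past 2-fold (14.4% of all genes), while none was with APO there (15.4%), nor with APO (13.8%) or VER (10.8%) in CWR22Rv1. Median log2 fold changes of the members were -1.13 and -1.20 in C4-2B MDVR and -1.06 and -0.56 in CWR22Rv1, with those of all genes between -0.01 and 0. The contrasts of a line share its DMSO library, so an error in that library moves both. The 10 members were chosen with earlier results of these data known, so these counts are descriptive and give no independent support. Of the family genes outside the 10, E2F5 and TFDP2 were above vehicle with APO in both lines, and E2F6 was below.

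APO and VER are different compounds given at the same dose and time. In C4-2B MDVR, the level with VER was below that with APO past 1.2-fold for 5 members (32.5% of all genes) and above it for RBL2 alone (28.5%). The largest such difference was that of E2F8, 0.730 against 0.20 FPKM, a log2 difference of -1.47 and the only one past 2-fold (10.5% of all genes were lower), and none was higher past 2-fold (8.68%). TFDP1 and RBL1 followed at -0.83 and -0.71, whereas E2F1, E2F3, E2F7 and RB1 were within 1.2-fold between the inhibitors. Of the genes called in this contrast 46.8% were higher with VER, and 60.0% and 62.4% were after rescaling to the same sum with and without the mitochondrial chromosome. In CWR22Rv1 the order was mostly the other way, with 6 members higher with VER than with APO (37.3% of all genes) and RB1 lower (34.5%). E2F1 was higher with VER by 1.16 on the log2 scale, E2F2 by 0.85, E2F7 by 0.73 and RBL1 by 0.72, and E2F1 was the only member past 2-fold (15.6% of all genes), with none lower past 2-fold (10.5%). RBL2 was higher with VER than with APO in both lines, by 0.66 and 0.53. No interval can be given for these differences with 1 library per condition.

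Between the lines under vehicle, 7 members were lower in C4-2B MDVR than in CWR22Rv1 past 1.2-fold (39.9% of all genes) and 2 were higher (35.5%). Past 2-fold there were 2, E2F2 at -1.65 and RBL2 at -1.06 (24.0% of all genes were lower), and none was higher past 2-fold (17.1%). The higher ones were E2F3, at 14.9 against 9.25 FPKM, and RBL1, at 7.98 against 5.95 FPKM. E2F1 was nearly level, with a log2 difference of -0.18.

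Other genes of the family and the pathway were read from lists of well-known members. Of the 4 further family genes, E2F5, a repressive E2F, was higher with APO in both lines, with log2 fold changes of 0.65 and 0.90, and was at -0.58 and -0.08 with VER. E2F6, a repressor that binds no pocket protein, was lower in all 4 treated libraries, from -0.65 to -0.28. TFDP2, a second DP protein, was at 0.22 and 0.87 with APO and at -0.24 and -0.08 with VER in C4-2B MDVR and CWR22Rv1. TFDP3 was listed at 0 in all 6 libraries.

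The MuvB core, which DREAM shares with activating complexes, and its activating partners differed. MYBL2 (B-Myb) was at 98.0, 42.5 and 11.6 FPKM in C4-2B MDVR and at 34.7, 15.6 and 14.1 FPKM in CWR22Rv1. FOXM1, the transcription factor of late cell cycle genes, was at 71.4, 31.1 and 12.9 FPKM and at 69.3, 29.8 and 26.4 FPKM. Both were more than 2-fold lower in all 4 treated libraries. The core genes LIN9, LIN37, LIN52, LIN54 and RBBP4 had log2 fold changes between -1.26 (LIN9 with VER in C4-2B MDVR) and 1.01 (LIN54 with APO in CWR22Rv1), without a shared direction. RBBP4 has near-identical copies in the genome, so its values are uncertain.

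All 24 listed targets of E2F in G1 and S phase, such as UHRF1, RRM2, MCM10 and CCNE2, were lower past 1.2-fold in each of the 4 contrasts. Of all genes compared, 35.4% (APO) and 34.9% (VER) were in C4-2B MDVR, and 39.2% and 32.3% in CWR22Rv1. This list, like the others, was chosen with earlier results of these data known. Past 2-fold the counts were 21 (13.3% of all genes) and 24 (13.3%) in C4-2B MDVR (APO, VER), and 21 (16.8%) and 12 (8.92%) in CWR22Rv1. The medians of the list were -1.60, -2.19, -1.62 and -0.99 in the same order. UHRF1, a replication-linked chromatin factor, was at 21.1, 2.21 and 1.32 FPKM in C4-2B MDVR and at 24.9, 2.98 and 7.25 FPKM in CWR22Rv1. RRM2, the small subunit of ribonucleotide reductase, was at 78.6, 14.5 and 2.70 FPKM and at 105, 30.2 and 30.2 FPKM.

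For 20 genes of G2 and mitosis that DREAM holds down in resting cells, the medians were -0.99 (APO) and -3.40 (VER) in C4-2B MDVR, and -0.56 and -1.29 in CWR22Rv1. Past 1.2-fold 18 (35.4% of all genes), 20 (34.9%), 15 (39.2%) and 20 (32.3%) of them were lower. With APO in CWR22Rv1, 1 gene, CDC25C, was higher (35.6% of all genes), and it was named after its value was seen. In CWR22Rv1 the G1/S median was lower with APO and the G2/M median lower with VER. KIF20A, a mitotic kinesin, was at 30.3, 8.63 and 1.52 FPKM in C4-2B MDVR and at 22.3, 12.6 and 6.67 FPKM in CWR22Rv1, and CCNA2 (cyclin A2) was at 22.7, 6.91 and 1.3 FPKM and at 52.7, 26.3 and 21.3 FPKM.

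**Figure D4:**
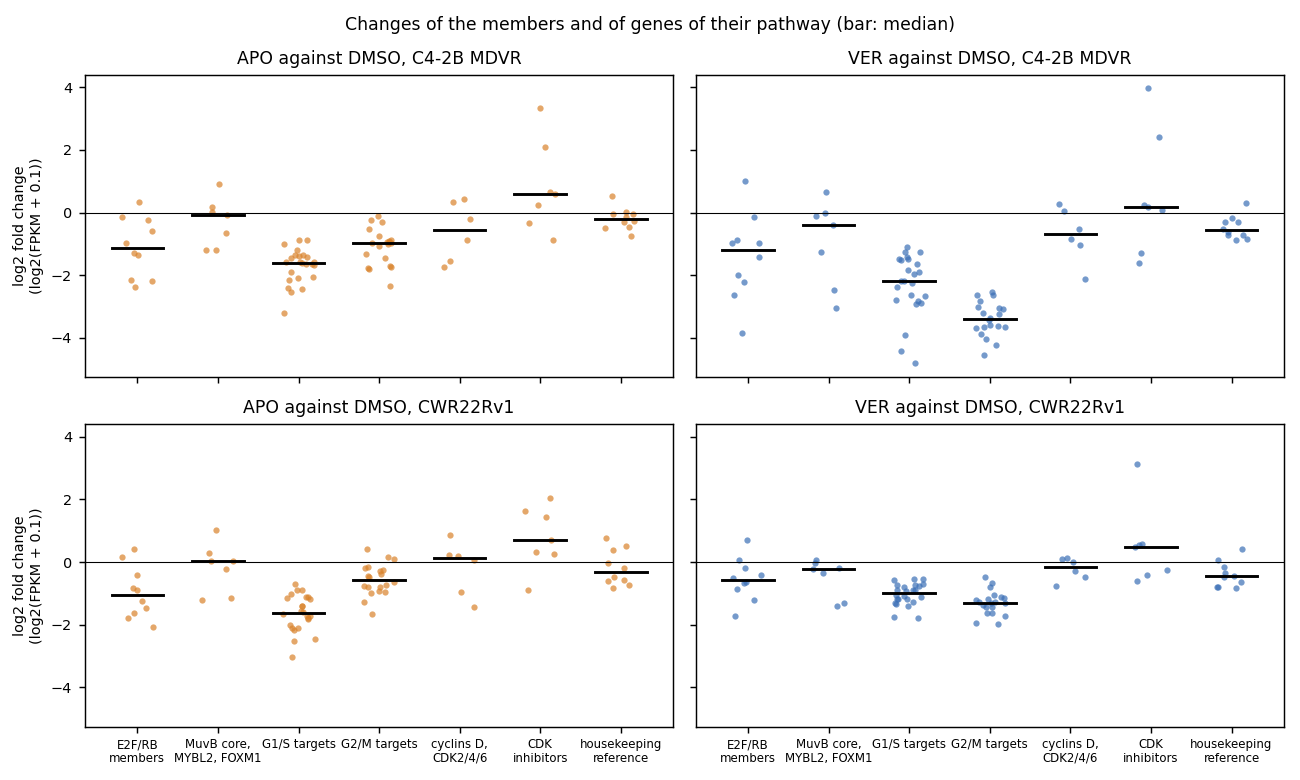
Points are log2 fold changes of single genes against DMSO of the same line and bars are list medians, in 1 panel per inhibitor and line. The G1/S points lie below 0 in all panels, and the G2/M median is lowest, at -3.40, with VER in C4-2B MDVR.

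The cyclins and kinases that phosphorylate pocket proteins did not share a direction. CCND1 (cyclin D1) was at 78.9, 23.5 and 38.1 FPKM in C4-2B MDVR and at 598, 695 and 647 FPKM in CWR22Rv1, so that it was lower past 2-fold in the first line and within 1.2-fold in the second. CDK2 was lower in all 4 treated libraries, at -1.55 and -2.11 in C4-2B MDVR and -1.43 and -0.78 in CWR22Rv1, and CCND3 (cyclin D3) was lower as well, between -0.95 and -0.48. CDK4 ran from -0.86 to 0.19, CDK6 from -0.01 to 0.34, and CCND2 was below 0.25 FPKM in every library.

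Among CDK inhibitors, CDKN1A (p21), a target of p53, was higher in all 4 treated libraries, at 54.5, 232 and 855 FPKM in C4-2B MDVR and 41.3, 172 and 359 FPKM in CWR22Rv1. CDKN2B (p15) was at 0.248, 3.43 and 1.75 FPKM and at 1.78, 5.71 and 2.52 FPKM. CDKN1B (p27) and CDKN1C (p57) had log2 fold changes of 0.09 to 1.43, CDKN2D of -0.59 to 0.32, and CDKN2C (p18) was lower in each contrast, from -1.29 to -0.43. CDKN2A, the neighbour of CDKN2B, was lowest at -1.60 with VER in C4-2B MDVR. Median changes of the 7 inhibitors were 0.60 and 0.17 in C4-2B MDVR and 0.72 and 0.48 in CWR22Rv1.

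Genes with the pattern most like a member were ranked by the root mean square difference over the 4 log2 fold changes over the 12167 genes that averaged 1 FPKM or more in each line. Nearest to E2F1 were TUBA4A, MYO19 and ZGRF1, at 0.07, 0.12 and 0.15. For E2F2 they were MCM2, TONSL and CCNE2, at 0.14, 0.15 and 0.23, and for E2F7 SIRT4, SKP2 and WDHD1, at 0.18 to 0.26. For E2F8 they were ERCC6L, TICRR and MKI67, at 0.29 to 0.35, by a distance that is not scaled to the size of a gene's changes. RBL2 lay nearest to TMED9, HDAC11 and SLC50A1, at 0.06 to 0.10, and RBL1 to FAM227A, UNKL and HNRNPDL, at 0.15 to 0.20. Those of RB1 were AKAP8L, PHAX and RPS6KB1, at 0.04 to 0.05, those of E2F3 PRKDC, ITPR3 and AC005726.1, at 0.04 to 0.10, those of E2F4 ARHGAP8, ING5 and TOPBP1, at 0.05 to 0.07, and those of TFDP1 SNRPB, WDR12 and TUBD1, at 0.08 to 0.12.

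Of the 16 promoter entries with both TTTCGCG and TTTGGCG, 11 belonged to genes above 1 FPKM in all 6 libraries, the 3 members E2F1, E2F2 and RBL1 among them. Past 1.2-fold, 6 were lower in all 4 contrasts (CDC25A, E2F1, E2F2, MCM6, POLA2 and ZNF444), and 9 were in at least 3. The other two were DSTYK and SLC30A3, and these genes were named after their values were seen. Without the 3 members, 4 of 8 were lower in all 4 contrasts and 6 of 8 in at least 3. Of all 8513 genes with an entry and above 1 FPKM in all 6 libraries, 12% and 22.7% were. Over all genes with either motif, the share lower past 2-fold was 11.2% (APO) and 14.6% (VER) in C4-2B MDVR, where 9.72% and 9.40% of all genes with an entry were. In CWR22Rv1 it was 12.7% and 4.63%, next to 12% and 5.08%.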

How the data were processed

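RNA-seq data of 6 libraries were used, 1 per condition. The authors aligned 150-base paired-end reads with HISAT to GRCh38 and deposited FPKM per gene, normalized by Cuffnorm in a Cufflinks pipeline (the methods also name TopHat and StringTie); tool versions and the annotation release are not given in the sources used here. The labels describe a stranded KAPA kit with poly(A) selection, the paper an Illumina TruSeq kit. FPKM gives no read totals, so no count test or counting error is given. Of 60658 identifiers 57047 matched GENCODE 29 (GRCh38).

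Changes are differences of log2(FPKM + 0.1) for genes above 0.1 FPKM in any of the 3 libraries in question, or of all 6 between lines; all 10 members passed. A gene was called past 1.2-fold, also 2-fold. The pseudocount understates changes of low genes. Relative depth is the commonest ratio of values between 0.001 and 0.05 FPKM.

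Named genes are the members, lists of 7 or fewer in full, of longer lists the 4 with the largest mean absolute change, and the 3 nearest genes per member. Members and lists were chosen with earlier results of these data known. Other settings tried were 0.01 or 1 as pseudocount, no filter or one at 1 FPKM, 3 rescalings and thresholds of 1.5-fold and 2-fold. Functions were tested on simulated data. Python 3.11.15, pandas 2.3.3, numpy 2.4.6 and matplotlib 3.10.9 were used.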

Additional observations from a re-analysis of the deposited data

Results flagged for a closer look

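Several results had opposite signs in the 2 lines, with at least 1 of the pair past 1.2-fold. These differences between lines were not tested, since each condition has 1 library. The share of all genes that meet this rule was not counted, so the results listed cannot be called particular to the family. Between the inhibitors, 28.5% of all genes were higher and 32.5% lower past 1.2-fold with VER in C4-2B MDVR. In CWR22Rv1 37.3% were higher and 34.5% lower. For the members this was so between the inhibitors (log2 of VER over APO, in C4-2B MDVR and then CWR22Rv1): E2F1 at -0.074 and 1.16, E2F2 at -0.44 and 0.85, E2F4 at -0.28 and 0.15, E2F7 at -0.061 and 0.73, RBL1 at -0.71 and 0.72, and RB1 at 0.10 and -0.34. Some of these signs depended on the pseudocount, filter or scaling. Over those settings E2F1 in C4-2B MDVR ran from -0.0745 to 0.102 and E2F7 there from -0.065 to 0.11. E2F4 in CWR22Rv1 ran from -0.033 to 0.24, while E2F2, RBL1 and RB1 kept their signs in both lines. Against DMSO, RB1 with APO was the only member with opposite signs and at least 1 value past 1.2-fold, at -0.25 in C4-2B MDVR and 0.40 in CWR22Rv1.

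Pathway genes with opposite signs after APO were LIN9 (-0.66 in C4-2B MDVR and 0.040 in CWR22Rv1), LIN54 (-0.063 and 1.01), CCND1 (-1.74 and 0.22) and CDKN2A (-0.32 and 0.27). After VER they were LIN37 (0.67 and -0.21), CCND1 (-1.05 and 0.11), CDK6 (0.27 and -0.010) and CDKN2D (0.17 and -0.59).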

How the results depend on the processing

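No paired analysis was possible within a line, because each condition has 1 library, and a fit over both lines with the line as a block was not run. No called change of a member changed sign under any alternative, and 473 of the members' values kept their side of 1.2-fold, 10 crossed to beyond it and 7 to within it. The rescalings to the same sum moved the median of genes above 1 FPKM by -0.15 and 0.12 with APO in C4-2B MDVR and CWR22Rv1, and without the mitochondrial chromosome by -0.16 and -0.15. RBL2 with APO in C4-2B MDVR was then 0.20 and 0.19, so no member was higher there (0, with 32.1% and 31.7% of all genes). Members higher with APO in CWR22Rv1 numbered 2 and 0 (40.3% and 30.3% of all genes), as did members lower with VER than APO there (43.1% and 31.0%). Without the mitochondrial chromosome 2 members were higher with VER than APO in C4-2B MDVR (39.5%). In that last contrast the calls of all genes, 5740 higher and 6536 lower, became 7535 and 5016 with the same sum and 7949 and 4793 without the mitochondrial chromosome. G2/M genes higher with APO in CWR22Rv1 were 2 and 0 (40.3% and 30.3% of all genes).

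Medians of reference genes with APO became -0.35 and -0.36 in C4-2B MDVR under the rescalings and -0.21 in CWR22Rv1 with the same sum. That of MuvB genes with VER in CWR22Rv1 became -0.27 under both, and that of cyclins and CDKs -0.29 among genes above 1 FPKM, where fewer genes are compared.

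Stricter thresholds lower counts by construction. At 1.5-fold, 0 members were higher with APO in C4-2B MDVR (25.2% of all genes) and CWR22Rv1 (23.8%). With VER than APO, 0 were lower in CWR22Rv1 (20.6%) and 3 in C4-2B MDVR (17.7%), and between lines 1 was higher (26.3%) and 4 lower (31.9%). At 2-fold the members lower numbered 5 with VER in C4-2B MDVR (13.3% of all genes). In CWR22Rv1 they numbered 5 with APO (16.8%) and 2 with VER (8.92%). Members higher numbered 0 with APO in C4-2B MDVR (15.4%) and with APO (13.8%) or VER (10.8%) in CWR22Rv1. Between inhibitors 0 members were higher (8.68% of all genes) and 1 lower (10.5%) with VER in C4-2B MDVR. In CWR22Rv1 1 was higher (15.6%) and 0 lower (10.5%). Between lines 0 were higher (17.1%) and 2 lower (24.0%), near the share of all genes. G2/M genes lower with APO numbered 9 (13.3% of all genes) and 3 (16.8%), with 0 higher in CWR22Rv1 at either threshold (23.8% and 13.8%). With VER in CWR22Rv1, 12 G1/S genes were lower (8.92%). Counts of other lists and of all genes moved by over 1.5 times in 86 cases. The files hold no counts, so no counting error can be given for low values such as that of E2F8 with VER in C4-2B MDVR.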
